A study of Mus musculus with 59 samples.

Results

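The reproductive homeobox (*Rhox*) genes lie side by side on the X chromosome of the mouse and encode homeodomain transcription factors. Most of them are transcribed in the testis, ovary, epididymis or placenta, and they are kept silent in most somatic lineages after implantation. *Rhox5* (also called *Pem*), the founding member, is expressed in trophoblast and extraembryonic endoderm and later in the Sertoli cells of the testis. *Rhox6* and *Rhox9* (also called *Psx1* and *Psx2*) are best known from the placenta, and the *Rhox2*, *Rhox3* and *Rhox4* genes form tandem arrays of near-identical copies.

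The 8 genes described here are *Rhox5*, *Rhox2b*, *Rhox2d*, *Rhox7a*, *Rhox6*, *Rhox9*, *Rhox1* and *Rhox4b*. They were chosen by symbol among the 34 protein-coding *Rhox* genes that the annotation places on chromosome X between 37213804 and 38306028 (GRCm38), which also holds 8 *Rhox* pseudogenes, and among 22134 genes with a listed transcript in all. Each gene was read through its transcript with the highest mean count, and a transcript missing from a file was given a count of 0. Of the 8, 7 had a count in at least 1 epiblast and *Rhox4b* had none.

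RNA was sequenced from 14 single epiblasts dissected at E6.25, of 59 samples in the series. The epiblast is the pluripotent layer of the embryo shortly after implantation, just before gastrulation. In the first cross, *Ehmt2+/-* parents gave 4 *Ehmt2-/-* epiblasts (labelled G9a-/-) and 4 controls. *Ehmt2* encodes G9a, a histone methyltransferase that deposits dimethylation of lysine 9 of histone H3 (H3K9me2). In the second cross, *Ezh2+/-* parents gave 3 *Ezh2-/-* epiblasts (labelled Ezh-/-) and 3 controls. EZH2 is the methyltransferase of Polycomb repressive complex 2 and deposits trimethylation of lysine 27 of histone H3 (H3K27me3). All mice were of mixed background. The labels give the controls as G9a+/+ and Ezh+/+, whereas the study also allows heterozygous controls (*Ehmt2+/-* or *Ezh2+/-*). The *Ehmt2* allele was derived from a conditional one, and *Ehmt2+/-* mice had been crossed with the ΔPE-Pou5f1-EGFP (GGOF) reporter, so epiblasts of either genotype in that cross can carry it. Each deletion was present from fertilisation and in every tissue of the embryo. The sex of the embryos was not labelled.

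For each library, 750 pg of RNA was amplified, and the deposited values were raw counts per transcript, 30161171 to 68464895 per epiblast over all transcripts. Levels are given as CPM, counts scaled to a common library size. The targeted transcripts were lower in their own knockouts. *Ehmt2* stood at 10.5, 11.2, 15.8 and 34.1 CPM across its controls and at 4.83, 4.54, 3.29 and 9.79 CPM across its knockouts (log2 fold change -1.63, SE 0.21, edgeR adjusted p = 0.00454). *Ezh2* stood at 51.6, 64.9 and 108 CPM across its controls and at 11.4, 11.6 and 15.98 CPM across its knockouts (log2 fold change -2.52, SE 0.27, edgeR adjusted p = 0.0160). All 7 epiblast markers checked, *Pou5f1*, *Nanog* and *Sox2* among them, had counts in all 14 epiblasts, and none was called changed in either cross. Their sum was lower in *Ehmt2* knockouts 1 to 3 (565, 771 and 715 CPM) than in every *Ehmt2* control (854 to 1143 CPM). Knockout 4, at 924 CPM, lay within the range of the controls but below control 4, which had 1143 CPM. In the *Ezh2* cross the sums overlapped (801 to 967 CPM in knockouts, 874 to 992 CPM in controls). The cause of the lower sums was not tested. Replicate 4 of the *Ehmt2* cross stood apart in both genotypes, with the highest totals and a chi-square statistic (divided by its degrees of freedom) of 156 to 206 against other epiblasts of its group, compared with 17.7 to 47.6 for all other pairs within a group. The results listed by the study set knockout 4 against control 4 and knockouts 1 to 3 against the other controls, although its methods describe a comparison with all controls. The division into replicates 1 to 3 and replicate 4 was a term of the fit here, and without it no member was called (edgeR adjusted p = 0.0770 for *Rhox5* and 0.0645 for *Rhox7a*).

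The near-identity of the copies limits what 40-base reads can assign, so the sequences of a pair of members are shown first. The 90 bases below are positions 305 to 394 of the coding sequence, 5′ to 3′, of *Rhox2b*, *Rhox2d* and the neighbouring copy *Rhox2a*, with capitals at every base that is not the same in all of them.
Rhox2b: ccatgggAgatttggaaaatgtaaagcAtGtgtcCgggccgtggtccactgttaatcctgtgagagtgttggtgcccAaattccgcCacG
Rhox2d: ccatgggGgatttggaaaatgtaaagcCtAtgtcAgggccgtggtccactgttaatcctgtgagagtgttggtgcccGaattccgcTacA
Rhox2a: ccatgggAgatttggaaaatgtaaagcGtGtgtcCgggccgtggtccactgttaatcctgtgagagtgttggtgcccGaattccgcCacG
Between the fourth and the fifth capital, the copies are identical over a stretch longer than a 40-base read, so a read from there cannot be given to a single gene. Over 573 coding bases, *Rhox2b* and *Rhox2d* differed at 27 positions (95.3% identical), and *Rhox2b* and *Rhox2a* at 5 (99.1% identical).

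Among all 40-base windows of a transcript, the share found in the transcript of another gene was 86.4% for *Rhox2b*, 55.9% for *Rhox2d*, 66.6% for *Rhox7a* and 91.2% for *Rhox4b*. The copies that shared most of them were *Rhox2e* (76.7%), *Rhox2g* (47.5%), *Rhox7b* (63.3%) and *Rhox4e* (79.7%), respectively. For *Rhox6* and *Rhox9* the shares were 19.2% and 22.1%, all of them shared between these neighbours. Counting windows found more than once on the X chromosome, the share for *Rhox6* was 29.1%. *Rhox5* and *Rhox1* shared no window with the transcript of any other gene, and none of their windows was found more than once on the X chromosome. Only exact matches were sought, and other chromosomes were covered only through their annotated transcripts. Within these limits, counts of *Rhox5* and *Rhox1* can be read gene by gene. Those of *Rhox2b*, *Rhox2d*, *Rhox7a* and *Rhox4b* are uncertain as to the copy, and the *Rhox2* and *Rhox4* copies are also given below as sums. How reads with several matches were counted is not given in the sources used here.

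*Rhox5* was upregulated in all *Ehmt2-/-* epiblasts. The transcript (ENSMUST00000179626, chromosome X from 37804851 to 37808764, plus strand, coding sequence only, 633 nt) had 151, 239, 59 and 4 counts in controls 1 to 4 and 7193, 2114, 2739 and 2414 counts in knockouts 1 to 4. These counts correspond to 3.78, 5.13, 1.58 and 0.0750 CPM for the controls and 206, 61.1, 71.5 and 40.3 CPM for the knockouts. The lowest knockout, which was knockout 4, lay above the highest control, which was control 2, and the groups did not overlap. The mean rose from 2.64 ± 2.25 CPM (SD, n = 4) to 94.7 ± 75.2 CPM (SD, n = 4), a 33.7-fold difference of the pooled levels. The log2 fold change was 5.46 (SE 0.60, edgeR quasi-likelihood test with Benjamini-Hochberg adjustment over 49872 transcripts, adjusted p = 0.00215). A two-sided exact permutation test of the CPM gave p = 0.0286, the smallest that 4 epiblasts against 4 allow.

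Embryo by embryo, each knockout lay above its controls. On the log2(CPM + 0.5) scale, knockouts 1, 2 and 3 lay 5.81, 4.06 and 4.29 above the mean of controls 1 to 3, and knockout 4 lay 6.15 above control 4, its only control. The last difference rests on the control with the fewest *Rhox5* counts, 4 in the second largest library. Without both epiblasts of replicate 4, an alternative chosen after seeing the data, the log2 fold change was 4.99 (SE 0.52, edgeR adjusted p = 0.00138). Without a term for the division into replicates 1 to 3 and replicate 4, it was 5.16 and the edgeR adjusted p was 0.0770, so the call was lost.

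**Figure D1:**
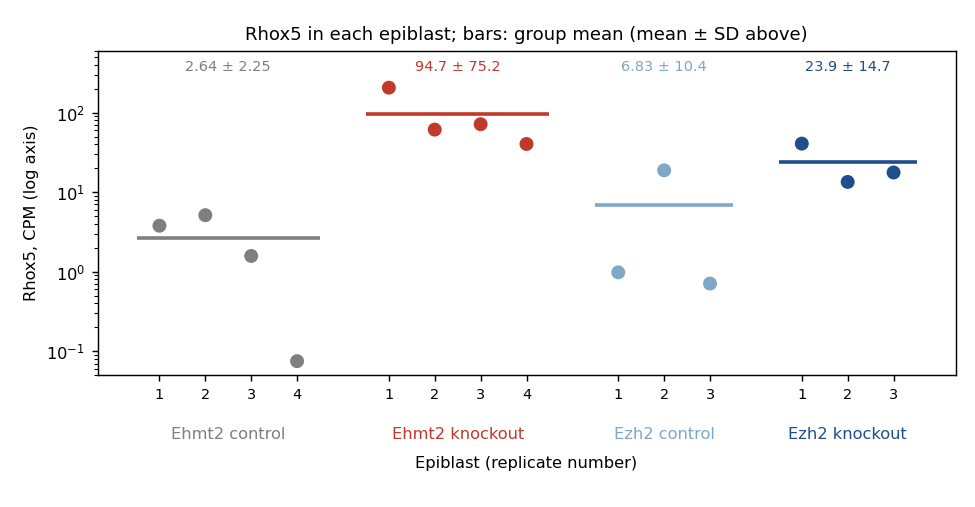
*Rhox5* in each of the 14 epiblasts, as CPM on a log axis against replicate number, with points for single epiblasts, horizontal bars for group means and the mean ± SD printed above. The 4 *Ehmt2* knockouts lie between 40.3 and 206 CPM, all above the controls of either cross, whereas the *Ezh2* knockouts, 13.4 to 40.8 CPM, straddle the level of *Ezh2* control 2 at 18.8 CPM.

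*Rhox5* was not called in the *Ezh2* cross. It had 35, 659 and 25 counts in controls 1 to 3 and 1311, 501 and 673 counts in knockouts 1 to 3, or 0.980, 18.8 and 0.709 CPM and 40.8, 13.4 and 17.7 CPM. Control 2 lay above knockouts 2 and 3, so the groups overlapped, and all knockouts lay above controls 1 and 3. The means were 6.83 ± 10.4 CPM (SD, n = 3) and 23.9 ± 14.7 CPM (SD, n = 3), with a log2 fold change of 1.81 (SE 0.97, 2 SE either side -0.12 to 3.74, edgeR adjusted p = 0.777). The two-sided exact permutation test gave p = 0.3, where 3 against 3 cannot go below 0.1. On the log2(CPM + 0.5) scale, knockouts 1 to 3 lay 3.66, 2.10 and 2.48 above the mean of the controls.

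This result turned on control 2. Without that epiblast, the log2 fold change of *Rhox5* in the *Ezh2* cross was 4.82 (edgeR adjusted p = 0.00884). Control 2 and knockout 1, each the highest of its group in *Rhox5*, were also the epiblasts with abundant visceral endoderm transcripts: the summed level of 12 markers was 1251 and 2803 CPM in them, and 34.8 to 53.1 CPM in the other 4 of this cross. Of the defining markers, *Afp* had 39.4 and 117 CPM, *Ttr* 29.5 and 74.7 CPM and *Amn* 5.08 and 8.36 CPM in these epiblasts, against at most 1.57, 0.560 and 0.590 CPM in the others of this cross. With both left out, an alternative also chosen after seeing the data, the log2 fold change was 4.20 (edgeR adjusted p = 0.00225). Control 2 was in addition the only *Ezh2* control with Y-linked transcripts (68.4 CPM over 4 genes, against 0.532 and 0.567 CPM in the other controls), while all *Ezh2* knockouts had them (58.8 to 75.7 CPM). Among the epiblasts of this cross with Y-linked transcripts, *Rhox5* was thus at 18.8 CPM in the control and at 13.4 to 40.8 CPM in the knockouts. With a term for Y-linked counts, chosen after seeing the data as well, its log2 fold change was 0.35. That value sets the knockouts against control 2 alone, the only control with Y-linked transcripts and one rich in visceral endoderm transcripts. Without control 2, all controls left lacked Y-linked transcripts and all knockouts had them, so sex and genotype cannot be told apart there, the part of visceral endoderm in the level of *Rhox5* was not tested further, and with bulk RNA fewer cells of a type and less RNA per cell cannot be told apart.

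The fitted effect on *Rhox5* was higher in the *Ehmt2* cross by 3.67 on the log2 scale (SE 1.23, unadjusted p = 0.00874 in the edgeR quasi-likelihood test, adjusted p = 0.431 over 55248 transcripts), so the difference between crosses did not pass the adjusted threshold. It was 0.66 without *Ezh2* control 2.

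*Rhox5* made up most of the *Rhox* counts in nearly every epiblast. Its share of all counts on *Rhox* genes was 93.5% to 95.7% in *Ehmt2* knockouts and 86.8% to 94.7% in *Ezh2* knockouts. In controls it was 30.8% to 93.7% (*Ehmt2* cross) and 50% to 98.7% (*Ezh2* cross), with the lowest value in *Ehmt2* control 4, which had 13 *Rhox* counts in all. Per kilobase of transcript, *Rhox5* reached 150 ± 119 CPM (SD, n = 4) in *Ehmt2* knockouts, and its lowest knockout, at 63.7 CPM per kilobase, exceeded the highest value of any other member there, 1.98 CPM per kilobase for *Rhox6*. The other members followed at 0.941 ± 0.469 (*Rhox7a*), 0.881 ± 0.821 (*Rhox6*), 0.741 ± 0.651 (*Rhox2d*), 0.422 ± 0.391 (*Rhox1*), 0.269 ± 0.218 (*Rhox2b*) and 0.148 ± 0.153 (*Rhox9*) CPM per kilobase (SD, n = 4), and neighbours in this order did not differ beyond their spread.

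**Figure D2:**
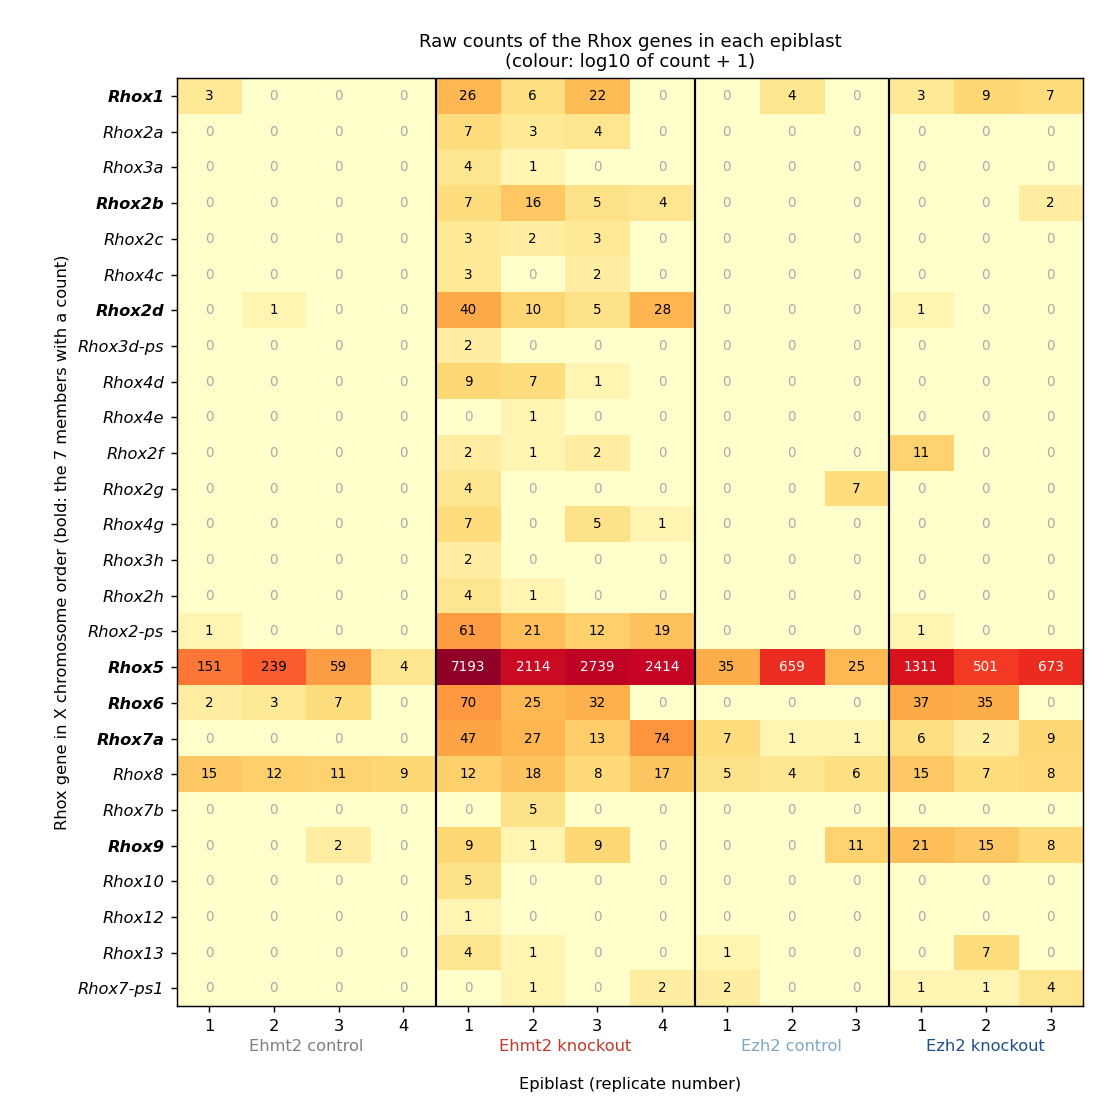
Raw counts of the *Rhox* genes with a count in any epiblast, in chromosome order from top to bottom (the 7 members with a count in bold), with 1 column per epiblast and colour for log10(count + 1). Outside *Rhox5*, *Rhox6* and *Rhox8*, the *Ehmt2* control columns are nearly empty, whereas *Ehmt2* knockout 1 has counts on 21 protein-coding *Rhox* genes and knockout 4 on 6.

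*Rhox7a*, which lies in the same part of the cluster as *Rhox5*, was detected in the *Ehmt2* cross only in the knockouts. The transcript (ENSMUST00000096454, chromosome X from 37831686 to 37841171, plus strand) had 0 counts in each of the 4 controls and 47, 27, 13 and 74 counts in knockouts 1 to 4, or 1.34, 0.781, 0.339 and 1.24 CPM. Its near-copy *Rhox7b* had 5 counts in *Ehmt2* knockout 2 and 0 in all other epiblasts. Set against 3 counts over the control group, the pooled level was at least 56.7-fold higher in knockouts. The edgeR adjusted p was 0.0227, and the two-sided exact permutation test gave p = 0.0286, the smallest possible. The call depended on single epiblasts, since leaving out any 1 of controls 1 to 3 or of knockouts 1 and 2 gave an edgeR adjusted p between 0.0639 and 0.0760. The fitted log2 fold change was 8.35 with all epiblasts and 8.06 to 8.42 in those fits, each against controls at 0 and so not a bound. Among *Ezh2* epiblasts, *Rhox7a* had 7, 1 and 1 counts in controls and 6, 2 and 9 in knockouts, the groups overlapped, and the exact permutation test gave p = 0.3. Its fitted effect was higher in the *Ehmt2* cross (unadjusted p = 0.000926, adjusted p = 0.228 in edgeR), again without passing the adjusted threshold.

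Of the 8 members, *Rhox5* and *Rhox7a* had enough counts to be tested in the *Ehmt2* cross, and both were called higher, where 0.441% of all transcripts tested were. That share counts transcripts and not genes. In the fit with 1 transcript per gene, the unit of the members, 112 of 13749 genes were called higher, both members among them. Since *Rhox7a* passed the filter on low counts through its knockouts alone, the count of members called is a description. Both were also higher under a per-embryo rule modelled on that of the study, a log2 fold change beyond 1.4 in every knockout with p-values combined by Fisher's method, which 0.59% of transcripts passed. It differed from the study in using edgeR p-values and the comparison sets above, and in having no minimum level per length. For the *Ezh2* cross *Rhox5* and *Rhox9* were tested, and neither was called, where 0% of transcripts were called higher by edgeR (758 at an unadjusted p under 0.05, and 153 called by DESeq2). Of the members tested for the difference between crosses, none was called, with 0.0326% of transcripts called higher in the *Ehmt2* cross.

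The *Rhox2* genes, from the tandem array at the centromere-proximal end of the cluster, were also seen in *Ehmt2* knockouts. *Rhox2d* (ENSMUST00000115179, chromosome X from 37493428 to 37497623) had 0, 1, 0 and 0 counts in controls 1 to 4 and 40, 10, 5 and 28 in knockouts, or up to 0.0215 CPM and 0.130 to 1.14 CPM. *Rhox2b* (ENSMUST00000115191, chromosome X from 37412067 to 37416806) had no count in any control and 7, 16, 5 and 4 counts in knockouts. Its pooled level was at least 11.3-fold higher, set against 3 counts over the controls. In both genes every knockout lay above every control, with p = 0.0286 in the two-sided exact permutation test, the smallest possible. Neither passed the filter on low counts. When all transcripts with a count were tested, *Rhox2d* was called (log2 fold change 5.92, edgeR adjusted p = 0.0421) and *Rhox2b* was not (edgeR adjusted p = 0.140). *Ezh2* epiblasts had 1 and 2 counts of them in all, every one in a knockout.

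Since reads of the *Rhox2* copies can go to several genes, the sum over all listed copies, pseudogene included, is the firmer measure. It was 3.66, 1.56, 0.809 and 0.852 CPM in *Ehmt2* knockouts 1 to 4, against 0 to 0.0251 CPM in controls, without overlap (two-sided exact permutation test, p = 0.0286). Over the *Ezh2* epiblasts the sum was 7 counts in controls and 15 in knockouts (exact permutation p = 0.7). The pseudogene *Rhox2-ps* carried 61, 21, 12 and 19 of these counts in *Ehmt2* knockouts and 1 count in all controls, and was itself called higher (log2 fold change 6.40, SE 1.11, edgeR adjusted p = 0.0258). It passed the filter on low counts through its knockouts, so the call is a description. The call was lost without the comparison set (edgeR adjusted p = 0.0906), with a term for Y-linked counts (0.123), with a term for extraembryonic ectoderm transcripts (0.137) and without any 1 of controls 1 to 3 or of knockouts 1 and 2 (0.0656 to 0.120).

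*Rhox4b* had no count in any epiblast. Other *Rhox4* copies, with which it shares most of its sequence, did. Their sum was 0.544, 0.231, 0.209 and 0.0167 CPM in *Ehmt2* knockouts 1 to 4, the last of them 1 read, and 0 in all *Ehmt2* controls, at least 12.7-fold higher (two-sided exact permutation test, p = 0.0286). All *Rhox4* copies were at 0 in the 6 epiblasts of the *Ezh2* cross. The *Rhox3* copies had 9 counts in *Ehmt2* knockouts, in knockouts 1 and 2, and 0 in all other epiblasts (exact permutation p = 0.429 in the *Ehmt2* cross).

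*Rhox6*, *Rhox9* and *Rhox1* differed from the members above in that *Ehmt2* knockout 4 had no count of any of them, and neither had control 4. *Rhox6* (ENSMUST00000006362, chromosome X from 37826910 to 37829857) had 2, 3, 7 and 0 counts in controls and 70, 25, 32 and 0 in knockouts, an 11.2-fold difference of the pooled CPM. Knockouts 1 to 3 were above every control and knockout 4 was not (exact permutation p = 0.143). *Rhox1* (ENSMUST00000115210, chromosome X from 37213804 to 37222258) followed the same order, with 3, 0, 0 and 0 counts in controls and 26, 6, 22 and 0 in knockouts (exact permutation p = 0.143). *Rhox9* (ENSMUST00000089062, chromosome X from 37899097 to 37901770) had 0, 0, 2 and 0 counts in controls and 9, 1, 9 and 0 in knockouts (exact permutation p = 0.257). None of these differences passed the test.

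The same genes were among the few with counts in *Ezh2* knockouts. *Rhox6* had 0 counts in all *Ezh2* controls and 37, 35 and 0 in knockouts 1 to 3, so knockout 3 was level with the controls (exact permutation p = 0.4). Set against 3 counts over the control group, the pooled level was at least 23.7-fold higher. *Rhox9* had 0, 0 and 11 counts in controls and 21, 15 and 8 in knockouts (log2 fold change 1.98, SE 1.26, edgeR adjusted p = 0.808). Without control 3, which held all control counts of *Rhox9*, the fitted value was 6.92 (edgeR adjusted p = 0.782), against controls at 0 and so not a bound. Without the epiblasts rich in visceral endoderm transcripts it was 0.96 (edgeR adjusted p = 0.961). *Rhox1* had 0, 4 and 0 counts in controls and 3, 9 and 7 in knockouts. For both *Rhox9* and *Rhox1*, 2 knockouts lay above every control (exact permutation p = 0.2).

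**Figure D3:**
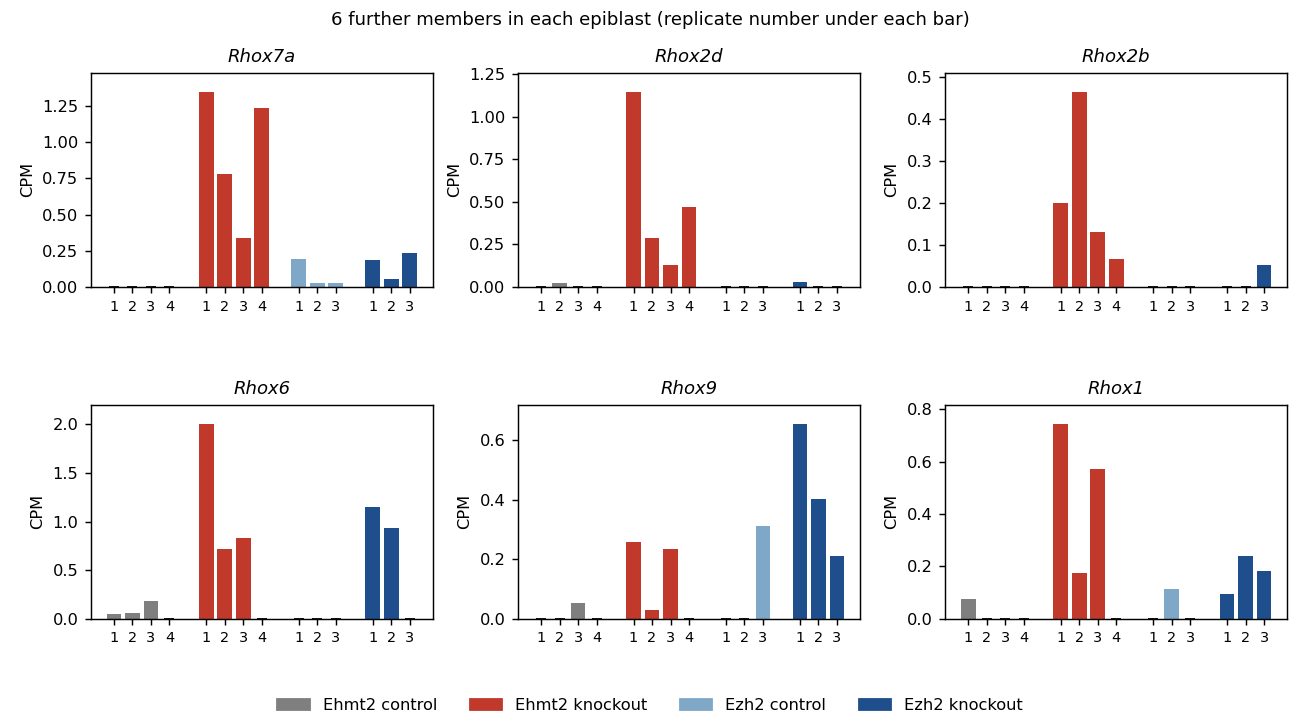
CPM of the 6 other members with counts, 1 panel each with its own axis from 0, with bars for single epiblasts and replicate numbers below. *Rhox7a*, *Rhox2d* and *Rhox2b* have bars in all 4 *Ehmt2* knockouts and lower bars or none elsewhere, whereas *Rhox6*, *Rhox9* and *Rhox1* have no bar in *Ehmt2* knockout 4 and have bars in at least 2 *Ezh2* knockouts.

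Taking the members by overlap alone, 4 of the 8 (*Rhox5*, *Rhox7a*, *Rhox2d* and *Rhox2b*) had every *Ehmt2* knockout above every control, where 2.84% of all genes with a count in that cross did. *Rhox7a* and *Rhox2b* had 0 counts in every *Ehmt2* control and at least 4 in every knockout, a pattern of 0.0565% of genes. Among the *Ezh2* epiblasts no member had every knockout above every control, where 6.36% of genes did.

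Across the cluster, *Ehmt2* knockouts had counts on 23 protein-coding *Rhox* genes in all and *Ehmt2* controls on 6. Single controls had counts on 4, 4, 4 and 2 of them, and knockouts 1 to 4 on 21, 17, 14 and 6. *Ezh2* controls had counts on 4, 4 and 5 and *Ezh2* knockouts on 8, 7 and 6. A further 11 protein-coding *Rhox* genes had no count in any epiblast and were left out of the next set. The 14 with a count in some epiblast but below 10 in each had 0 counts in all *Ehmt2* controls together. They had 90 counts in the *Ehmt2* knockouts, and each of the 14 was seen in at least 1 *Ehmt2* knockout. The same 14 genes had 8 counts in *Ezh2* controls and 7 in *Ezh2* knockouts. Outside the members, *Ehmt2* knockouts 1 to 4 had counts on 14, 10, 7 and 2 protein-coding *Rhox* genes, *Rhox8* included. In knockout 4 these were *Rhox8* and a *Rhox4* copy with 1 count. The shares of all genes with such patterns were not computed, so these numbers are a description. Summed over all *Rhox* genes except *Rhox5*, the level was 0.526, 0.343, 0.535 and 0.169 CPM in *Ehmt2* controls and 9.41, 4.25, 3.21 and 2.42 CPM in knockouts (two-sided exact permutation test, p = 0.0286). For the *Ezh2* epiblasts it was 0.420, 0.257 and 0.709 CPM in controls and 2.98, 2.04 and 0.997 CPM in knockouts, also without overlap (exact permutation p = 0.1, the smallest that 3 against 3 allow).

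*Rhox8*, a gene of gonadal somatic cells that sits among *Rhox5*, *Rhox6* and *Rhox7a*, was not called in the *Ehmt2* cross. It had 15, 12, 11 and 9 counts in controls and 12, 18, 8 and 17 in knockouts (log2 fold change 0.34, SE 0.64, 2 SE either side -0.93 to 1.61, edgeR adjusted p = 0.886). *Ezh2* epiblasts had 5, 4 and 6 counts in controls and 15, 7 and 8 in knockouts, without overlap (exact permutation p = 0.1). *Rhox2f* had at most 2 counts in any *Ehmt2* knockout and 11 in *Ezh2* knockout 1.

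The genes next to the cluster were read in the same way. Of the 5 nearest tested genes on each side, none was called in either cross. Their log2 fold changes ran from -0.36 to 5.28 in the *Ehmt2* cross, with a median of 0.40, and from -1.06 to 1.92 in the *Ezh2* cross, with a median of -0.087. The top of both ranges was *Gm9*, 2.76 kb before *Rhox1*, with a log2 fold change of 5.28 (SE 1.11, edgeR adjusted p = 0.0596) in the *Ehmt2* cross and 1.92 (SE 0.85, edgeR adjusted p = 0.705) in the *Ezh2* cross. *Gm9* had at most 0.258 CPM in *Ehmt2* controls and 0.868 to 5.78 CPM in *Ehmt2* knockouts. The others were *Rnf113a1*, *Ndufa1*, *Akap14* and *Nkap* on that side and *Lamp2*, *Cul4b*, *Mcts1*, *C1galt1c1* and *Gria3* on the far side, beginning 95.3 kb past the last *Rhox* gene. Within the cluster, the interspersed genes *Tmem255a* (log2 fold change -0.44, edgeR adjusted p = 0.808) and *Zbtb33* (log2 fold change 0.27, edgeR adjusted p = 0.639) were not called in the *Ehmt2* cross. Farther out, 2 of 40 tested genes (among the 40 annotated on each side) were called in the *Ehmt2* cross, and they are named after their values were seen. *Akap17b*, 568 kb before *Rhox1*, had a log2 fold change of 2.15 (SE 0.42, edgeR adjusted p = 0.0468) in the *Ehmt2* cross and of 0.42 (edgeR adjusted p = 0.832) in the *Ezh2* cross. This call was lost without the comparison set (edgeR adjusted p = 0.246), with a term for Y-linked counts (0.166) or extraembryonic ectoderm transcripts (0.303) and without any 1 of controls 1 to 3 or knockout 2 (0.0506 to 0.156). *Gm14569*, 722 kb before *Rhox1*, had 2 counts over the *Ehmt2* controls and 554 over the knockouts (edgeR adjusted p = 0.00544). *Gm14569* passed the filter on low counts through its knockouts, so its call is a description.

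**Figure D4:**
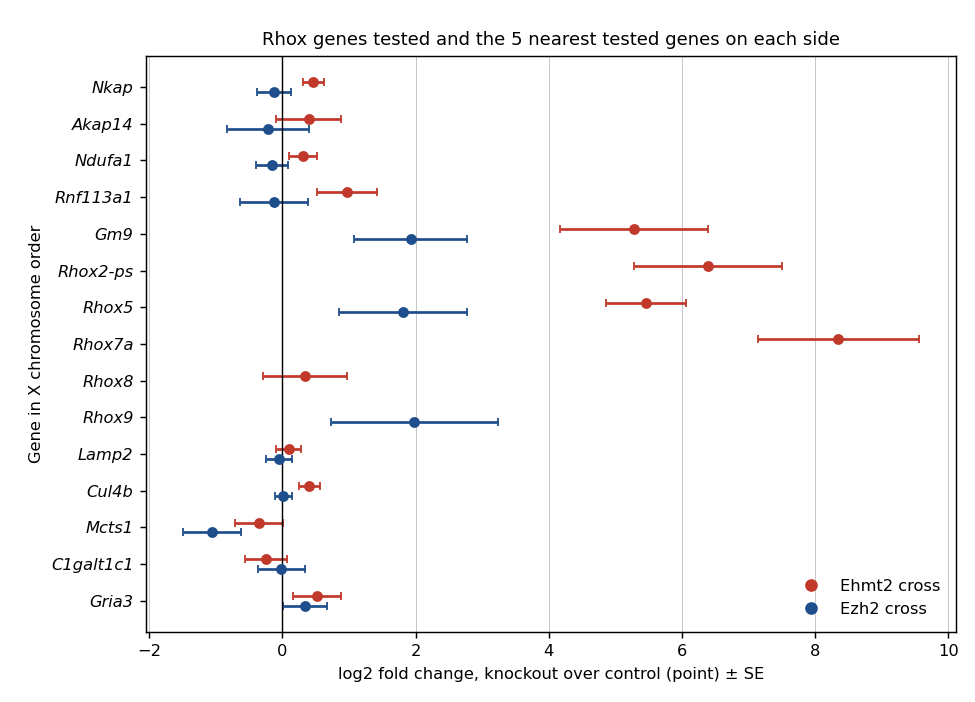
Log2 fold changes (knockout over control, points, with bars of 1 SE) of the *Rhox* genes that passed the filter and of the 5 nearest tested genes on each side, in chromosome order, for the *Ehmt2* cross (red) and the *Ezh2* cross (blue). *Rhox2-ps*, *Rhox5* and *Rhox7a*, together with *Gm9*, lie above 5 in the *Ehmt2* cross, whereas *Rhox8* and the other neighbours lie within about 1 of 0. The point of *Rhox7a* is a fitted value against controls that were all at 0 and is not a bound.

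Several, though not all, listed markers of extraembryonic ectoderm, the trophoblast layer that adjoins the epiblast, moved with *Rhox5* in knockouts 1 to 3 of the *Ehmt2* cross. *Elf5* went from 0.200, 0.451, 0.535 and 0 CPM over controls 1 to 4 to 60.9, 5.87, 12.3 and 0 CPM over knockouts 1 to 4, and was called higher (log2 fold change 6.03, SE 0.86, edgeR adjusted p = 0.0114). *Tfap2c*, which is also expressed in germ cells, had at most 1.07 CPM in controls and 26.1, 7.78, 8.09 and 0 CPM in knockouts (log2 fold change 3.80, SE 0.57, edgeR adjusted p = 0.0119). *Cdx2* had at most 0.429 CPM in controls and 6.52, 1.36, 1.17 and 0 CPM in knockouts, and did not pass (edgeR adjusted p = 0.132). *Ascl2*, *Gata3*, *Hand1* and *Ets2* were higher in knockouts 1 to 3 than in every control, without a call. *Eomes*, *Esx1* and *Plac1* did not follow. *Eomes* had a log2 fold change of -0.13, and *Esx1* had at most 0.0289 CPM in *Ehmt2* knockouts. *Plac1* was at 0 CPM in knockout 1, which had the most *Rhox5*. In all, 2 of 9 tested markers of this list were called higher in the *Ehmt2* cross and 0 of 7 in the *Ezh2* cross. Without a call, the mean log2(CPM + 0.5) of the list was 1.80, 1.77 and 0.626 in *Ezh2* knockouts 1 to 3. It was 0.961, 0.392 and 0.484 in *Ezh2* controls 1 to 3. The summed level of the 10 listed markers ranged from 31.3 to 136 CPM in *Ehmt2* controls and from 35.5 to 263 CPM in *Ehmt2* knockouts, and *Eomes*, which the epiblast also expresses, carried most of it in controls.

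Knockout 4 differed from knockouts 1 to 3. It had no count of *Elf5*, *Cdx2*, *Tfap2c* or *Hand1*, which knockouts 1 to 3 all had, and it had none of *Rhox6*, *Rhox9* and *Rhox1*. Control 4 had none of these genes either, apart from 1 count of *Tfap2c*. Control 4 and knockout 4 also had the fewest transcripts with a count, 57926 and 56476, against 59566 to 63240 in the other epiblasts. Knockout 4 nevertheless had 40.3 CPM of *Rhox5* and 1.24 CPM of *Rhox7a*, against 0.0750 and 0 CPM in control 4, and 28 counts of *Rhox2d* against 0. An alternative added after seeing the data used the mean level of the extraembryonic ectoderm list as a term of the fit. With it, the log2 fold change of *Rhox5* in the *Ehmt2* cross was 6.32 (edgeR adjusted p = 0.0277), and that of *Rhox7a* was 7.53 (edgeR adjusted p = 0.0577). As entered in the fit, this level was 3.04, 2.44 and 2.49 in knockouts 1 to 3 and 0.662, 0.965 and 1.14 in controls 1 to 3. It was 0.0872 in knockout 4 and 0.276 in control 4. Among replicates 1 to 3 the term thus separated the genotypes, and these values lean on knockout 4 against control 4. They cannot show whether extraembryonic ectoderm cells added to *Rhox5* or *Rhox7a* in knockouts 1 to 3. In the *Ezh2* cross, the same term gave a log2 fold change of *Rhox5* of 2.21 (SE 1.62, edgeR adjusted p = 0.770). The part of extraembryonic ectoderm cells in the levels of *Rhox6*, *Rhox9* and *Rhox1* was not tested in either cross. Visceral endoderm markers summed to 8.92 to 85.8 CPM in the 8 epiblasts of this cross, and none was called in either cross. None of 4 tested germ cell markers was called in either cross. The summed level of the 5 listed germ cell markers was still higher in every knockout than in every control of its cross. It was 13.6 to 31.9 CPM in *Ehmt2* knockouts and 6.85 to 11.1 CPM in *Ehmt2* controls. In the *Ezh2* cross it was 16.2 to 28.3 CPM in knockouts and 10.5 to 14.5 CPM in controls. The cause was not tested. No blood marker had enough counts to be tested. Y-linked transcripts were present in *Ehmt2* controls 2 and 4 and in knockout 4, which had 54.8 to 76.5 CPM of them, and at 0.130 to 0.426 CPM in the other 5 epiblasts of the cross. With a term for Y-linked counts, also added after seeing the data, the log2 fold change of *Rhox5* in the *Ehmt2* cross was 5.91 (edgeR adjusted p = 0.00674), and that of *Rhox7a* was 8.41 (edgeR adjusted p = 0.0709).

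**Figure D5:**
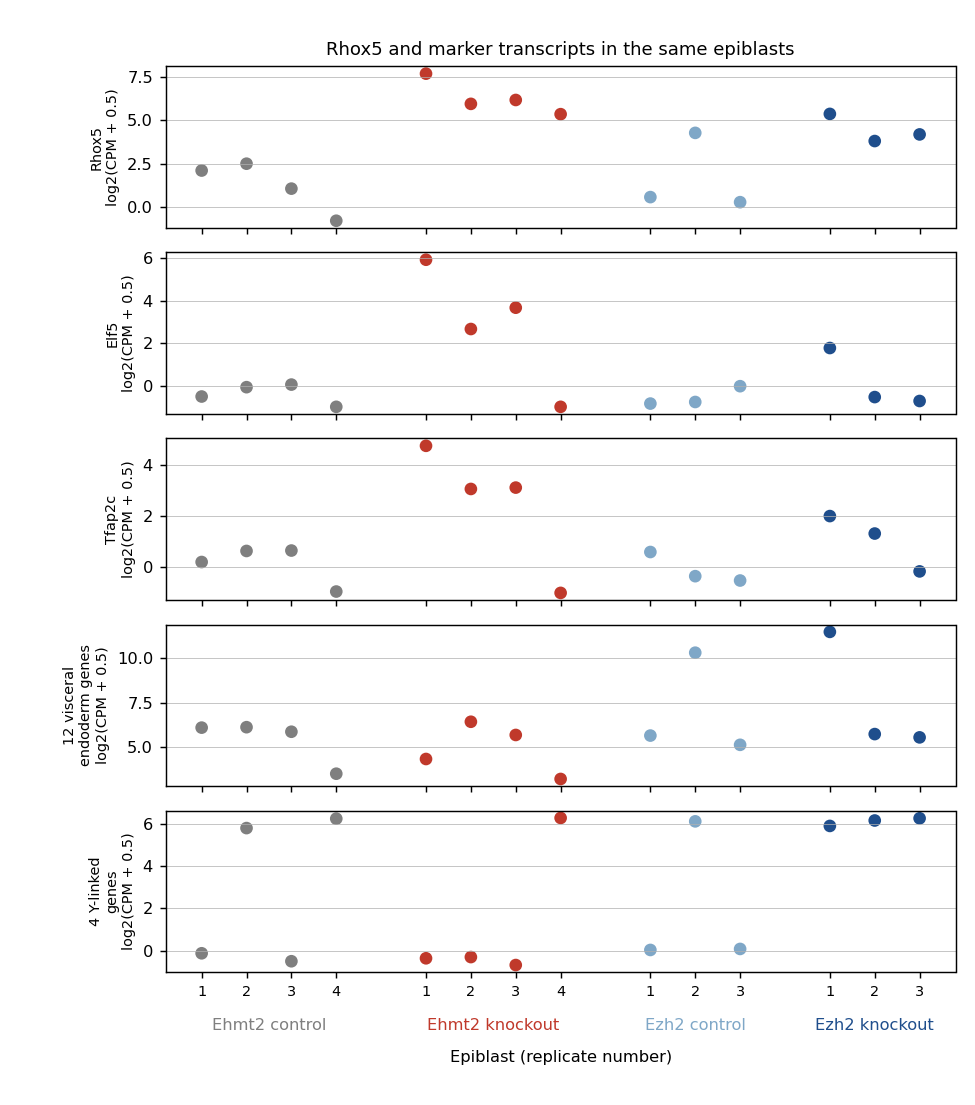
Levels in each epiblast as log2(CPM + 0.5), from top to bottom for *Rhox5*, *Elf5*, *Tfap2c*, the sum of 12 visceral endoderm genes and the sum of 4 Y-linked genes, with 1 point per epiblast. *Ehmt2* knockout 4 is at the bottom of the *Elf5* and *Tfap2c* panels, level with control 4 or close to it, but above every *Ehmt2* control for *Rhox5*. *Ezh2* control 2 is high for *Rhox5*, for visceral endoderm and for Y-linked genes.

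Of 24 chromatin factors that act in silencing (G9a and its partners, the HP1 and SETDB1 pathway, DNA methyltransferases, Polycomb and the E2F6 complex), only the targeted gene was called in each cross, and it was lower. Levels of the other 23 gave no call in either cross, with the transcripts of *Ehmt1*, *Dnmt3a*, *Dnmt3b*, *E2f6* and *Pcgf6* among them.

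The genes outside the cluster whose profile over the 14 epiblasts was closest to that of *Rhox5*, by root mean square difference of the centred log2(CPM + 0.5), were *Sfmbt2* on chromosome 2 (1.09), *Acpp* on chromosome 9 (1.14) and *Gab1* on chromosome 8 (1.33), where the median over 13745 genes was 2.50. *Sfmbt2*, an imprinted Polycomb-related gene of extraembryonic lineages, went in mean level from 4.07 ± 2.82 CPM in *Ehmt2* controls to 134 ± 178 CPM in *Ehmt2* knockouts (SD, n = 4). Its level in *Ezh2* controls was 4.37 ± 4.02 CPM and in *Ezh2* knockouts 47.9 ± 13.2 CPM (SD, n = 3). For *Rhox7a* the closest were *Mageb4* (0.248), *Xlr5b* (0.262) and *Xlr5c* (0.272), all on the X chromosome, with a median of 0.734 over the same genes. *Xlr5b*, a member of another X-linked multicopy family, had 0.0441 ± 0.0470 CPM in *Ehmt2* controls and 1.07 ± 0.18 CPM in *Ehmt2* knockouts (SD, n = 4). These are descriptions over epiblasts that share crosses and libraries.

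Promoter windows of 300 bases, 250 before to 50 after the RefSeq start (GRCm38.p6), were at hand for 27 *Rhox* genes, of which *Rhox5*, *Rhox2b*, *Rhox2d*, *Rhox1* and *Rhox4b* are members. *Rhox6*, *Rhox7a* and *Rhox9* had no window. The motif CCGGAAG, the core recognised by ETS family factors, was found on either strand in 8 of the 27, and in 8.86% of all 32851 windows. The 8 were *Rhox5* and the 7 *Rhox2* genes that had a window, while *Rhox2f* had none. The stretches below show it in 3 members called or detected in *Ehmt2* knockouts, written 5′ to 3′ on the plus strand with the motif in capitals, here as its reverse complement CTTCCGG.
Rhox5, chrX:37754474-37754600: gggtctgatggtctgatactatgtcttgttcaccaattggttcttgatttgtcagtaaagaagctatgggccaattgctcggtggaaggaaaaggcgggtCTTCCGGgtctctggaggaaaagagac
Rhox2b, chrX:37411954-37412080: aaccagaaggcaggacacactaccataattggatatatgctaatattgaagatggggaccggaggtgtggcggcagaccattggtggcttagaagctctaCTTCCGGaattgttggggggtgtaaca
Rhox2d, chrX:37493292-37493418: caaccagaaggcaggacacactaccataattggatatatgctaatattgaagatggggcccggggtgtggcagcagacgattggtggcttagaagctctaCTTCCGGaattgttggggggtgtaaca
The motif began 34 bases before the RefSeq start of *Rhox5*, 51 before that of *Rhox2b* and 18 before that of *Rhox2d*, and the *Rhox2* stretches resemble each other over most of their length, as their transcripts do. The *Rhox5* window, chrX:37754358-37754657, lies well before the coding-only transcript on which its reads were counted.

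The motif CACGTG, an E-box, was found in 5 of the 27 *Rhox* windows, all of them among the 7 of *Rhox4* genes and 1 of them that of *Rhox4b*, and in 7.15% of all windows. TCCCGC, the core of E2F sites, was found in 0 of the 27 and in 20.0% of all windows, both strands being searched each time. The number of CpG dinucleotides per window was 0 for *Rhox1*, 5 for *Rhox5*, 6 for *Rhox2d*, 8 for *Rhox2b* and 10 for *Rhox4b*, where the median of all windows was 7. A match is a description of the letters and not a site of binding.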

How the data were processed

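The data are RNA-seq values of 14 epiblasts, each from 1 embryo at E6.25. The authors trimmed reads to 40 nt, aligned them with TopHat2 to GRCm38/mm10 and deposited raw read counts per Ensembl release 74 transcript from HTSeq-count. The amplification kit does not mark strand. A row of unaligned reads in the files of *Ehmt2* replicate 4 (12.6% and 13.3% of the file) was dropped. The other samples of the series (ChIP-seq and bisulfite sequencing) were not analysed here.

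Of 72515 transcripts, 70021 (96.6%) were matched by identifier to GENCODE vM21 for names and positions. Counts were scaled with TMM, filtered with filterByExpr by genotype (minimum count 10) and tested with edgeR 4.0.16 (glmQLFit and glmQLFTest, R 4.3.3) within each cross, with the comparison set as a term in the *Ehmt2* cross, and over all 14 epiblasts for the difference. Calls required an adjusted p under 0.05 (Benjamini-Hochberg, over all transcripts tested) and a log2 fold change beyond 1.4. The SE of a log2 fold change was taken as its size over the root of the F statistic. CPM used TMM library sizes over the 14 epiblasts. A fold against a group at 0 used 3 counts over that group, which covers counting error only. Permutation tests were two-sided and exact (scipy 1.17.1) and were not adjusted over the members. The code was tested on simulated data.

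The genes named are the 8 members, *Rhox* genes with 10 counts in an epiblast (other *Rhox* genes by count, except *Rhox2a*, *Rhox2e*, *Rhox2g*, *Rhox7b* and *Rhox4e*, named for their sequence), the targeted genes, 5 tested neighbours a side (4 further genes of the region were named after their values were seen), the 3 nearest profiles of each member tested in the *Ehmt2* cross, and lists of cell type markers and silencing factors. Members and lists were chosen with earlier results of these data known. The epiblasts came from 4 litters of the *Ehmt2* cross and 3 of the *Ezh2* cross, and which of them shared a litter is not given in the sources used here. Deviations of same-numbered controls and knockouts correlated at r over 0.1 in 3 of 7 pairs (r = -0.0935 to 0.320), so numbers were not taken as pairs. Alternatives were RLE scaling, DESeq2 1.42.0, no filter, 1 transcript per gene, a replicate block, no comparison set, a per-embryo rule, leaving out each epiblast, a pseudocount of 0.1 in place of 0.5 and, chosen after seeing the data, leaving out epiblasts that stand apart and terms for Y-linked and extraembryonic transcripts. Promoter sequences are from RefSeq and coding bases from the GENCODE transcripts. Identity between *Rhox* proteins was not computed.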

Additional observations from a re-analysis of the deposited data

Results flagged for a closer look

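In 3 of 12 sets of values checked, 1 control of the *Ehmt2* cross lay far from the others of its group. These were *Rhox2d* in control 2 (0.0215 CPM, from 1 count), *Rhox9* in control 3 (0.0535 CPM, from 2 counts) and *Rhox1* in control 1 (0.0752 CPM, from 3 counts). In each, the other controls were at 0, so a single read is enough to set a control apart, and the criterion, built to set apart about 1 in 20 groups by chance, need not keep that rate where all other values are 0.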

How the results depend on the processing

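In the *Ehmt2* cross, 2 members were called (*Rhox5* and *Rhox7a*), and also with RLE scaling, DESeq2, 1 transcript per gene, the per-embryo rule and without both epiblasts of replicate 4. Without a filter on low counts, 3 were called. With the replicate block, with a Y-linked term and with an extraembryonic ectoderm term, 1 was called, *Rhox5*, and without the comparison set, 0 (*Rhox5* at an edgeR adjusted p of 0.0770 and *Rhox7a* of 0.0645). Under the replicate block, *Rhox7a* had an edgeR adjusted p of 0.107, the pseudogene *Rhox2-ps* of 0.0595 and *Akap17b* of 0.0550, *Rhox5* in the *Ezh2* cross had a log2 fold change of 3.29 (SE 1.1, unadjusted p = 0.0144, adjusted p = 0.623 in edgeR) and *Rhox9* there of 2.93 (edgeR adjusted p = 0.798). Leaving out 1 epiblast at a time gave 1 to 2, and *Rhox5* was called in all 8 of these fits. In the *Ezh2* cross, 0 were called in the main fit and 1, *Rhox5*, without control 2 or without both epiblasts rich in visceral endoderm transcripts, so that leaving out 1 epiblast gave 0 to 1. The difference between crosses for *Rhox5* was 0.66 to 4.28 on leaving out 1 epiblast, and its direction never changed. No result reversed under any alternative. With a pseudocount of 0.1, 12 of 14 mean level differences moved by more than the spread of the controls, in the same direction. Where all controls were at 0 counts, their spread was 0, so any change exceeded it and the direction was fixed. This held for *Rhox2b* in both crosses, for *Rhox7a* in the *Ehmt2* cross and for *Rhox2d* and *Rhox6* in the *Ezh2* cross.

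Counts over all transcripts (higher and lower) moved more. In the *Ehmt2* cross they were 220 and 29, against 544 and 192 with DESeq2, 395 and 65 without a filter, 112 and 12 for 1 transcript per gene, 99 and 6 with the replicate block, 51 and 1 without the comparison set, 294 and 97 by the per-embryo rule, 391 and 45 without replicate 4, 88 and 13 with a Y-linked term and 316 and 287 with an extraembryonic ectoderm term. In the *Ezh2* cross they were 0 and 6, against 153 and 25 with DESeq2, 20 and 8 without a filter, 3 and 7 with the replicate block, 290 and 74 by the per-embryo rule and 23 and 6 without the epiblasts rich in visceral endoderm transcripts. The causes were not tested. Members other than *Rhox5* had at most 74 counts in an epiblast, which limits what could be detected.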
